A study of Mus musculus with 6 samples.

Results

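The 9 genes Il6st, Lifr, Cntfr, Osmr, Lif, Cntf, Ctf1, Clcf1 and Socs3, which encode receptor chains, ligands and a feedback inhibitor of the neuropoietic cytokines, were followed through the autonomic ganglia of the newborn mouse. They were taken by symbol from the 32285 genes listed in the deposited matrices, and all 9 were found. The samples were 6 single-cell RNA libraries of whole ganglia dissected from Phox2bCre;RosatdT pups of both sexes at postnatal day 5, with no treatment and no comparison genotype, so that every library carried the Cre driver and its tdTomato reporter. The sphenopalatine (parasympathetic), stellate, coeliac and lumbar chain (sympathetic) ganglia gave 1 library each and the pelvic ganglion gave 2. The stellate, sphenopalatine and first pelvic libraries were made in round 1 and the coeliac, lumbar and second pelvic libraries in round 2, at another facility with another version of the 3′ kit. How many pups or ganglia went into a library is not given in the sources used here, and ganglion, preparation and round cannot be told apart except in the pelvic ganglion, which was sampled in both rounds.

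Neuropoietic cytokines signal through gp130, the chain encoded by Il6st that the whole interleukin-6 family shares. Leukaemia inhibitory factor (Lif) and cardiotrophin-1 (Ctf1) recruit gp130 with the chain encoded by Lifr, ciliary neurotrophic factor (Cntf) and cardiotrophin-like cytokine (Clcf1) additionally need the membrane-anchored Cntfr chain, and oncostatin M can pair gp130 with Osmr. The receptors activate Jak kinases and Stat3, and Socs3 is a Stat3 target that closes a negative loop on gp130. In the sympathetic ganglia this pathway is best known for the switch of sweat gland neurons from a noradrenergic to a cholinergic phenotype under the influence of their target, and for the induction of neuropeptides after axotomy.

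The libraries held between 39353313 (coeliac) and 113352559 (stellate) unique molecular identifiers (UMIs, counted molecules), and 21442 barcodes passed the cell filters. Cell classes were rebuilt here: 7052 neurons and 8468 glial cells were selected by pan-neuronal and glial genes that include none of the 9, and neurons were clustered within each library without the 9 genes. Levels are given as CPM, the UMIs of a gene per 1000000 UMIs of the summed cells, and libraries shared at most 49 barcodes in any pair. The median neuron held 26651 UMIs in the stellate and 108598 in the second pelvic library, against 3522 and 12151 for the shallowest and deepest glia, so shares of cells with a UMI are set by depth as well as by expression. Free RNA was present in every library: 7 neuronal genes not used for selection reached 3.39 to 20.6% of their neuronal level in the glia. Of 6 glial genes not used for selection, Gfra3 was also a leading gene of noradrenergic neuron clusters. The other 5 together reached 0.428 to 2.11% of their glial level in the neurons, against 1.23 to 7.16% with Gfra3 included. Where 5 glial genes are named below, Gfra3 is left out.

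The 3 receptor chains of the Cntf receptor, Il6st, Lifr and Cntfr, were present in the neurons and in the glia of all 6 libraries, whereas Osmr was nearly absent from neurons. Il6st stood between 12.3 and 37.0 CPM in the neurons (median 24.5) and between 29.8 and 64.2 CPM in the glia (median 45.8). The neurons were lower than the glia in 5 of 6 libraries, the sphenopalatine being the exception. The log2 difference of neurons from glia was -0.86 ± 0.23 (SE, n = 6 libraries, edgeR quasi-likelihood test with library as a block, adjusted p = 0.00947). Among the 6 members abundant enough to be tested, 5 differed between neurons and glia and all 5 were lower in neurons, beside 75.2% of the 14019 genes tested that were called, 37.4% lower and 37.8% higher in neurons. Il6st was not called within round 1 (-0.39, adjusted p = 0.243) and was within round 2 (-1.27), a difference between rounds that itself did not pass the test (adjusted p = 0.187).

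Cntfr, the anchored chain that confers the response to Cntf, followed the same order. It measured 39.9 to 62.4 CPM in neurons (median 57.2) and 59.2 to 144 CPM in glia (median 100.25). Only the second pelvic library had as much in neurons as in glia (59.6 and 59.2 CPM). The log2 difference was -0.76 ± 0.24 (edgeR, adjusted p = 0.0212), and it lost its call when the stellate library was left out (-0.66, adjusted p = 0.0644) or within round 2 (-0.34, adjusted p = 0.214). Endothelial-like cells, which had the lowest mean Cntfr of the cell classes described below, held 0.864 to 6.51 CPM, under every neuronal and glial value.

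Lifr, the chain that binds Lif and cardiotrophin-1, varied most between ganglia among the 3 abundant receptor chains. Neurons held 14.7 to 92.6 CPM (median 55.6) and glia 24.2 to 61.9 CPM (median 44.1), and neurons were the higher in 5 of 6 libraries. The log2 difference of 0.45 ± 0.21 did not pass (edgeR, adjusted p = 0.0877). In the sphenopalatine library the neurons were instead the lower, at 14.7 against 25.2 CPM, and without that library the difference was called (0.67, adjusted p = 0.0015), as it was within round 2 (0.66, adjusted p = 0.00224).

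Osmr, the oncostatin M receptor chain, was measured at 0.0276 to 0.2998 CPM in neurons and at 0.533 to 2.05 CPM in glia. The groups did not overlap, but the gene was too low for the test. The share of all genes whose ranges do not overlap was not counted, for this or for any later comparison. Its level was 19.5 to 36.7 CPM in endothelial-like cells of the same libraries, where it is described with the other classes.

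**Figure D1:**
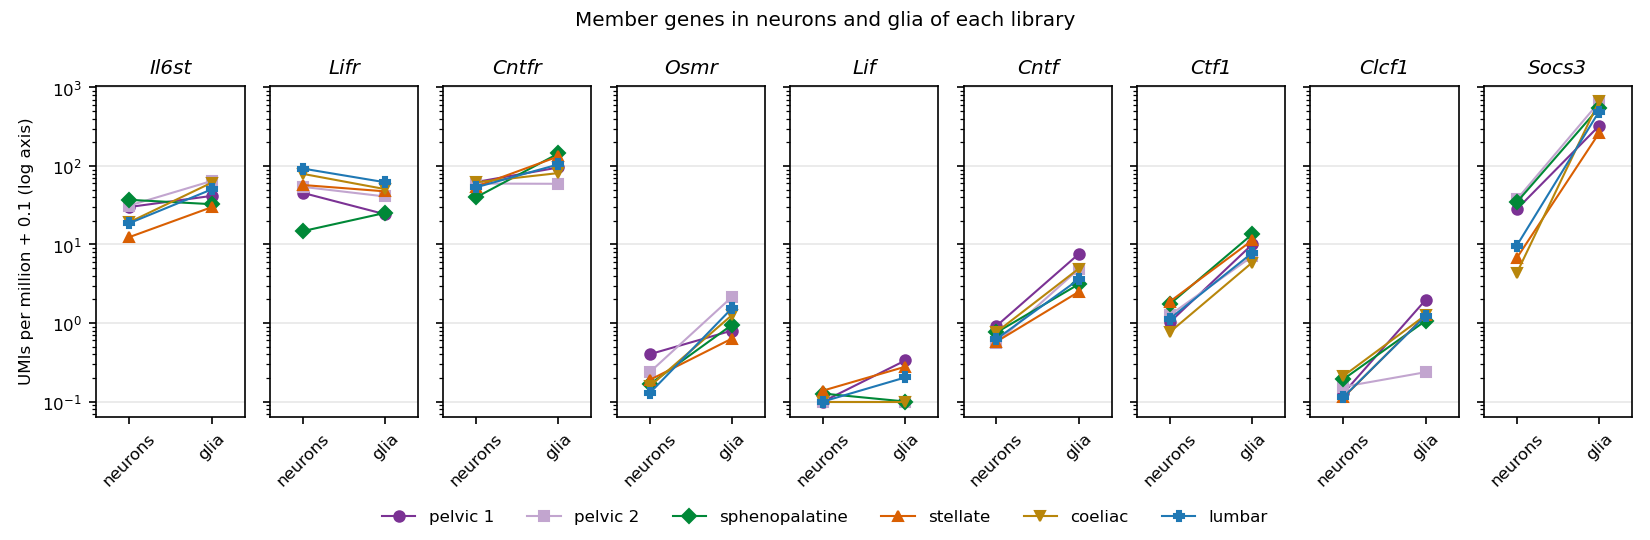
Level of each of the 9 genes (CPM plus 0.1, log axis) in the neurons and the glia of the 6 libraries, with a line joining the 2 values of a library. The lines of Socs3, Ctf1, Cntf, Osmr and Clcf1 climb from neurons to glia in every library, Il6st and Cntfr climb in 5 of 6, Lifr falls in 5 of 6, and Lif sits on the floor in both.

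Across the ganglia, the order of neuronal Lifr was lumbar (92.6 CPM), coeliac (79.3), stellate (57.2), second pelvic (54.1), first pelvic (45.4) and sphenopalatine (14.7). The exact Poisson intervals at 95% of the stellate and the second pelvic value overlap (55.5 to 58.8 and 51.8 to 56.6 CPM) and those of the other neighbours in the order do not, but they cover counting error only, and the pelvic libraries of the 2 rounds already differ by more than their intervals. The sphenopalatine value was lower than every other. With each neuron thinned to 4000 UMIs, 4.75% of sphenopalatine neurons retained a Lifr UMI against 17.2 and 18.3% of pelvic and 19.2 to 29.4% of sympathetic neurons, where the unthinned shares were 39.8% and 69.5 to 93.7%.

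Il6st ran in nearly the opposite order, from 37.0 CPM in sphenopalatine neurons through 31.2 and 29.9 CPM in pelvic neurons to 19.1, 18.6 and 12.3 CPM in coeliac, lumbar and stellate neurons. Cntfr was the flattest, at 39.9 CPM in the sphenopalatine and 53.4 to 62.4 CPM in the other 5 libraries. With a single library for each ganglion but the pelvic, these orders were not tested. UMIs of Il6st, Lifr and Cntfr together were found in 17.3% (stellate) to 68.5% (second pelvic) of neurons, and in 0.759 to 14.5% of glial cells, shares that rest on the depth per cell.

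Of the ligands, Cntf and Ctf1 were glial rather than neuronal transcripts. Cntf measured 0.460 to 0.818 CPM in neurons and 2.40 to 7.48 CPM in glia, with no overlap. In the first pelvic library, which gave the highest glial value, 37 of the glial Cntf UMIs came from 34 myelinating Schwann-like cells, and the other glia measured 3.25 CPM, still above every neuronal value. Its log2 difference of neurons from glia was -2.67 ± 0.21 (edgeR, adjusted p = 1.26e-05). Cntf lies on chromosome 19 at 12763660 to 12765632 (GRCm38, minus strand), inside the Zfp91 gene on the same strand. The overlap may have affected its counts.

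Ctf1 measured 0.667 to 1.78 CPM in neurons and 5.80 to 13.4 CPM in glia. Every glial value was above every neuronal value, and the log2 difference was -2.84 ± 0.17 (edgeR, adjusted p = 3.64e-06). Clcf1, another ligand of Cntfr, reached 0.0126 to 0.111 CPM in neurons and 0.136 to 1.87 CPM in glia, and it was too low to be tested. A further coding gene, AC109138.7, overlaps Clcf1 on the same strand, so counts of Clcf1 here and in the other cell classes carry the same doubt.

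Lif was hardly detected in either class. Neurons held 5 Lif UMIs in all, 2 in the sphenopalatine and 3 in the stellate library, and none in the other 4 libraries, which allows up to 0.0415 to 0.167 CPM. Glia held 5 UMIs.

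Socs3, the feedback inhibitor, showed the widest gap between neurons and glia of the members tested. Neurons measured 4.23 to 37.4 CPM (median 18.8) and glia 262 to 672 CPM (median 524), and the groups did not overlap. The log2 difference was -4.83 ± 0.53 (edgeR, adjusted p = 6.56e-05), with -4.14 within round 1 and -5.53 within round 2. The 12 immediate early and stress genes that dissociation is known to induce moved the same way: all 12 were lower in neurons, and their summed level was 382 to 1546 CPM in neurons against 5291 to 15740 CPM in glia. Their part in the Socs3 result was not tested.

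The Socs3 promoter is shown because Socs3 was the member with the widest range across the neuron types and because Stat factors bind a short palindrome with the letters TTCNNNGAA. The RefSeq window of 250 bases before to 50 bases after the start, on the minus strand at chr11:117969317-117969616 (GRCm38.p6), holds this motif once, 154 bases before the start, printed here in capitals.

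Socs3 promoter: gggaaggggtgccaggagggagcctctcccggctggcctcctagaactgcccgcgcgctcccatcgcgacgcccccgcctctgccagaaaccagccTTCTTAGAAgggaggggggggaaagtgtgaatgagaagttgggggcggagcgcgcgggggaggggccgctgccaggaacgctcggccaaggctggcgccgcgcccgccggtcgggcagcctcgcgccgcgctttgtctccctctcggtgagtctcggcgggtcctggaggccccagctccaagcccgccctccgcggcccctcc

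The motif reads the same on both strands. Of the 32851 full-length RefSeq windows, 8.30% hold at least 1 match, so a match is common, and none was found in the windows of Il6st, Lifr, Cntfr, Osmr, Lif, Cntf and Ctf1. This describes letters in a window and does not show binding.

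Among the other genes of the pathway, 4 of 8 Jak and Stat genes differed between neurons and glia, below the 75.2% of all genes tested. Among them, Stat5a (log2 difference -1.25, adjusted p = 0.000153) and Jak2 (-0.44, adjusted p = 0.0109) were lower in neurons and Jak1 was higher (0.67, edgeR, adjusted p = 0.0334), whereas Stat3 was not called. Of 6 feedback inhibitors, Socs1, Socs3, Pias3 and Ptpn2 were lower in neurons, while Socs2, which restrains growth hormone signalling, was higher (1.39, adjusted p = 0.000392), at 193 to 414 CPM in neurons against 66.6 to 171 CPM in glia. Socs3 and Socs2 thus lay on opposite sides in the same libraries.

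Cholinergic neurons were next compared with noradrenergic neurons, the contrast for which the pathway is known in sympathetic ganglia. Cholinergic clusters had Chat at 5 CPM or more, Slc5a7 and Slc18a3 at 50 or more and Slc6a2 below 500 CPM. No limit was set on their Th and Dbh. Noradrenergic clusters had Th, Dbh and Slc6a2 at 200 CPM or more, with Chat below 2 and Slc5a7 and Slc18a3 below 25 CPM. These thresholds placed 2273 neurons in cholinergic and 2873 in noradrenergic clusters. They left 1906 unnamed, from 32 in the coeliac to 901 in the stellate library. Clusters that met the transmitter thresholds were also left unnamed where genes of glia, fibroblasts, blood or other cells outnumbered their own markers among their 10 leading genes. The pelvic libraries, the stellate and the lumbar chain held at least 20 neurons of each kind, and the stellate and lumbar cholinergic neurons were only 32 and 80 cells. The lumbar ones were also mostly shallow, with a median of 10502 UMIs against 70078 for all lumbar neurons. Their CPM rest mainly on the deeper cells among them. By their own transmitter UMIs, 38 lumbar neurons were cholinergic. Both of these cholinergic groups kept noradrenergic genes. Th, Dbh and Slc6a2 measured 259, 1097 and 406 CPM in the stellate and 41.6, 590 and 264 CPM in the lumbar cholinergic neurons. In the pelvic cholinergic clusters Th reached at most 4.3 and Slc6a2 at most 6.5 CPM, while Dbh ran from 1.1 to 62.1 CPM.

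Socs3 was higher in the cholinergic neurons of 4 of 4 libraries and the groups did not overlap. It measured 17.5 and 38.2 CPM in cholinergic neurons of the pelvic libraries, 24.6 CPM in the stellate and 36.7 CPM in the lumbar library. The noradrenergic neurons of the same libraries measured 10.8, 5.83, 3.25 and 3.73 CPM. The sphenopalatine cholinergic neurons (33.5 CPM) and the coeliac noradrenergic neurons (3.87 CPM), for which the other class was missing, lay on the same sides. Within the pelvic libraries the P1-like cholinergic neurons measured 34.1 and 57.8 CPM. The P2-like cholinergic neurons, 244 of 514 and 92 of 286 cells, measured 3.75 and 3.21 CPM and the P4-like neurons of the second library 2.89 CPM, below the noradrenergic neurons of their library.

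The log2 difference was 2.41 ± 0.45 (SE, n = 4 libraries, edgeR, adjusted p = 0.0315), and Socs3 was the only 1 of 6 tested members called, beside 6.59% of the 13409 genes tested, 3.86% higher and 2.73% lower in cholinergic neurons. With every neuron classed by its own transmitter UMIs in place of its cluster it was 2.26 (adjusted p = 0.0284). The call was lost without the second pelvic (2.28, adjusted p = 0.0935), the stellate (2.29, adjusted p = 0.11) or the lumbar library (2.04, adjusted p = 0.0672). It was also lost without simulated doublets (2.25, adjusted p = 0.0795) and within round 1 (1.70, adjusted p = 0.26) or round 2 (3.08, adjusted p = 0.149). No gene at all was called within round 2, so Socs3 could not have kept its call there. The difference was smaller in the pelvic libraries together than in the stellate and lumbar libraries, by 1.48 on the log2 scale (edgeR interaction term, adjusted p = 0.0148). The pelvic libraries were unlike, at 17.5 against 10.8 CPM in the first and 38.2 against 5.83 CPM in the second. In the first, 104 neurons of a cluster at 96.8 CPM of Socs3 met the cholinergic thresholds but were left unnamed. Whether the smaller difference holds in each pelvic library was not tested.

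Stress genes moved with this contrast as well. Of the 12, Junb (1.78), Egr1 (1.85), Fosb (1.60) and Fos (1.34) were higher in cholinergic neurons, and the summed level of all 12 was 892 against 407, 1517 against 791, 647 against 342 and 1205 against 372 CPM in the first pelvic, second pelvic, stellate and lumbar libraries. None of 6 glial genes was called, but 5 glial genes together stood at 3.69% of their glial level in the lumbar cholinergic neurons and 0.179% in the noradrenergic ones, where Socs3 stood at 7.43% and 0.754%. In the stellate the glial genes stood at 2.29% and 1.14% and Socs3 at 9.38% and 1.24%, so the 2 noradrenergic shares lay close together. In the pelvic libraries the glial genes stood at 0.894 and 0.341% in cholinergic and 0.954 and 0.349% in noradrenergic neurons, and Socs3 at 5.39 and 5.89% against 3.33 and 0.898%. Fibroblast-like cells, described below, also held much Socs3, at a mean of 520 CPM. The part of stress genes, glial RNA and RNA of other cells in the result was not tested.

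The receptor chains differed less between the transmitter classes. Lifr measured 36.9 against 34.2 CPM in cholinergic and noradrenergic neurons of the first pelvic library, 56.7 against 33.6 in the second, 134 against 54.0 in the stellate and 136 against 88.0 in the lumbar library. It was higher in cholinergic neurons in 4 of 4 libraries, by 0.69 ± 0.18 on the log2 scale, and missed the threshold (edgeR, adjusted p = 0.0736). The ganglia with a single class lay on the other sides, at 14.7 CPM in sphenopalatine cholinergic and 78.5 CPM in coeliac noradrenergic neurons. Lifr was called by DESeq2 (adjusted p = 0.0131) and with every gene kept (0.67, adjusted p = 0.0231). The call was also made in clusters at a Leiden resolution of 2 in place of 1 (0.90, adjusted p = 0.0126). In the pelvic libraries alone (n = 2) it was called as well (0.47, adjusted p = 0.0221). Only alternatives that called Lifr are listed here. The pelvic cholinergic types were unlike in Lifr. In the first and second library P2-like neurons measured 22.8 and 14.0 CPM, below the noradrenergic 34.2 and 33.6 CPM. P4-like neurons measured 46.2 and 29.9 CPM, and P1-like neurons 50.6 and 78.7 CPM.

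Il6st was higher in cholinergic neurons of both pelvic libraries, at 30.2 against 17.2 and 31.7 against 13.5 CPM, while the stellate (11.5 and 11.3) and lumbar values (17.6 and 17.8 CPM) lay close together. Over the 4 libraries the log2 difference was 0.53 ± 0.27 (edgeR, adjusted p = 0.292). In the pelvic libraries alone (n = 2) it was 1.04 (edgeR, adjusted p = 4.12e-07). The pelvic difference exceeded that of the stellate and lumbar ganglia by 1.10 (edgeR interaction term, adjusted p = 0.0095). The pelvic contrast was thus larger for Il6st, and smaller for Socs3, than that of the stellate and lumbar ganglia.

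Cntfr measured 52.3 to 65.2 CPM in cholinergic and 53.5 to 64.9 CPM in noradrenergic neurons, with a log2 difference of 0.06 ± 0.12 (edgeR, adjusted p = 0.819). Ctf1 (-0.40 ± 0.40, adjusted p = 0.606) and Cntf (-0.41 ± 0.61, adjusted p = 0.757) were not called, and Osmr, Lif and Clcf1 were too low to test.

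Of 8 Jak and Stat genes, which act downstream of the receptors, 3 were higher in the cholinergic neurons, among them Stat3 (1.27, adjusted p = 0.0195) and Stat5b (1.33, edgeR, adjusted p = 0.0242). Stat3 measured 85.1 to 127 CPM in cholinergic and 28.96 to 51.2 CPM in noradrenergic neurons of the 4 libraries, with no overlap. In the first and second pelvic libraries the P1-like neurons measured 108 and 108 CPM, the P2-like 72.7 and 42.0 CPM and the P4-like 62.9 and 52.0 CPM. The noradrenergic neurons there measured 51.2 and 42.6 CPM, so the P2-like level of the second library was not above them. Of 6 feedback inhibitors only Socs3 was called. Among neuropeptide genes that gp130 cytokines are known to induce in cultured sympathetic neurons, Vip (7.74, adjusted p = 0.00512) and Sst (6.40, adjusted p = 0.000552) were higher and Gal was not called.

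**Figure D2:**
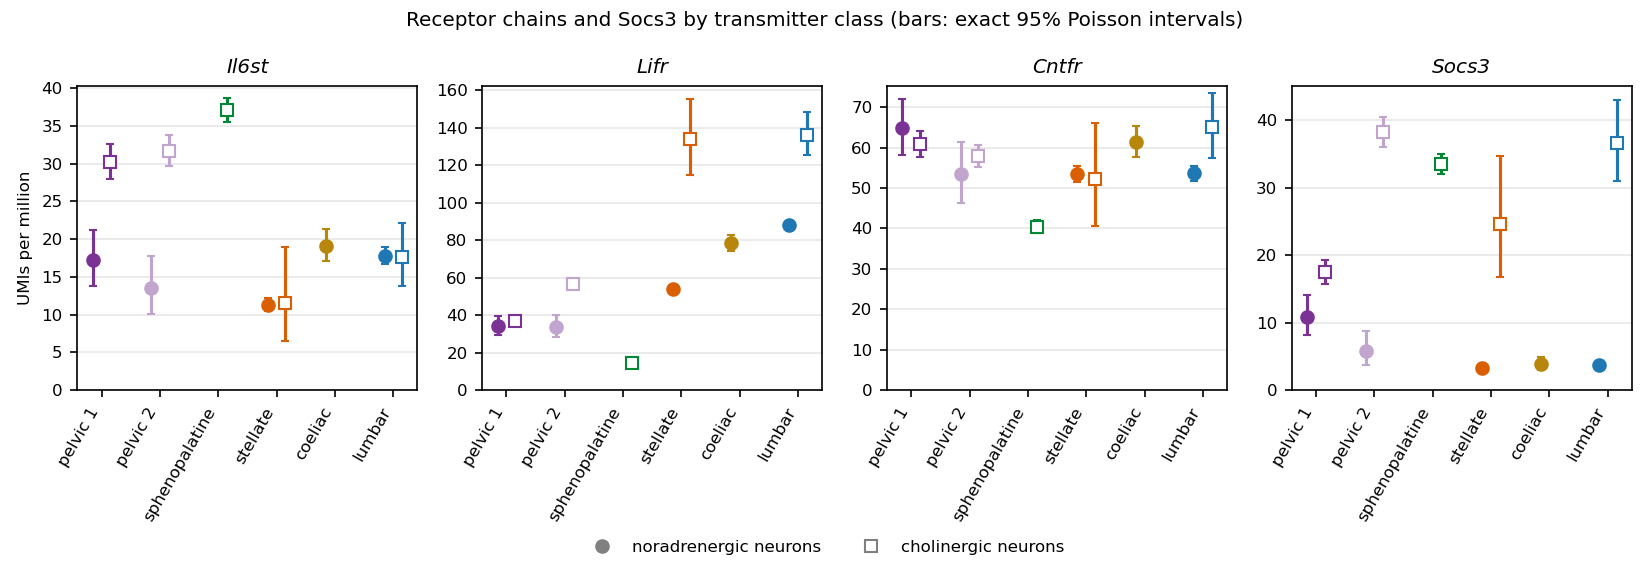
Level (CPM) of Il6st, Lifr, Cntfr and Socs3 in noradrenergic (filled circles) and cholinergic neurons (open squares) of each library, with exact 95% Poisson intervals for counting error. For Socs3 every open square stands above the filled circle of its library, from 17.5 against 10.8 in the first pelvic to 36.7 against 3.73 in the lumbar library, and Cntfr pairs lie together.

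The pelvic ganglion mixes cholinergic and noradrenergic neurons of several types, and its clusters were named P1-like to P4-like from 5 marker genes for each type. P3-like clusters were the noradrenergic ones and the other types cholinergic. All 4 tested members, Il6st, Lifr, Cntfr and Socs3, differed between the types in a fit over both pelvic libraries, beside 37.5% of the 13039 genes tested.

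Socs3 was highest in P1-like neurons, at 34.1 CPM in the first and 57.8 CPM in the second pelvic library. P2-like neurons measured 3.75 and 3.21 CPM, P3-like neurons 10.8 and 5.83 CPM, and P4-like neurons 13.3 and 2.89 CPM. Summed over their clusters, P1-like neurons thus exceeded every other type in both libraries. They were not uniform: a P1-like cluster of 73 neurons led by Cartpt in the first library held 10.0 CPM, below its P3-like and P4-like neurons. The largest gap between types, P1-like to P2-like, was 3.72 on the log2 scale (n = 2 libraries, edgeR F test over the 4 types, adjusted p = 3.67e-09).

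The 12 stress genes summed to 983 and 1943 CPM in P2-like and 768 and 1316 CPM in P1-like neurons, and the 5 glial genes stood at 0.526 and 0.229% of their glial level in P2-like and 0.605 and 0.328% in P1-like neurons. Socs3 itself stood at 10.5 and 8.90% of its glial level in P1-like and 1.16 and 0.495% in P2-like neurons. All 12 stress genes and all 6 glial genes differed somewhere among the 4 types, and their part in the Socs3 result was not tested.

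Lifr was also highest in P1-like neurons, at 50.6 and 78.7 CPM, and lowest in P2-like neurons, at 22.8 and 14.0 CPM. P3-like neurons measured 34.2 and 33.6 CPM and P4-like neurons 46.2 and 29.9 CPM. The P2-like level was below the others in both libraries, by 1.83 on the log2 scale from the P1-like level (edgeR, adjusted p = 3.45e-06).

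Il6st measured 36.6 and 37.2 CPM in P1-like, 24.3 and 21.8 in P2-like, 17.2 and 13.5 in P3-like and 31.7 and 22.2 CPM in P4-like neurons. The noradrenergic P3-like neurons were the lowest in both libraries, 1.32 on the log2 scale from the P1-like level (edgeR, adjusted p = 1.96e-05). Cntfr ran the other way: the P1-like sums measured 45.4 and 47.7 CPM, against 53.5 to 78.8 CPM in the other types. The span was 0.68 (edgeR, adjusted p = 0.00316). The P1-like clusters were not uniform in Cntfr. In the second library a P1-like cluster of 31 neurons led by Fst held 80.1 CPM, above the P2-like level of 78.8 CPM. Another, of 40 neurons, held 56.8 CPM, above the P3-like level of 53.5 CPM. Without the library block the calls of Cntfr (adjusted p = 0.261) and Il6st (adjusted p = 0.0582) were lost, and that of Cntfr was also lost at a clustering resolution of 2 (adjusted p = 0.0615).

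**Figure D3:**
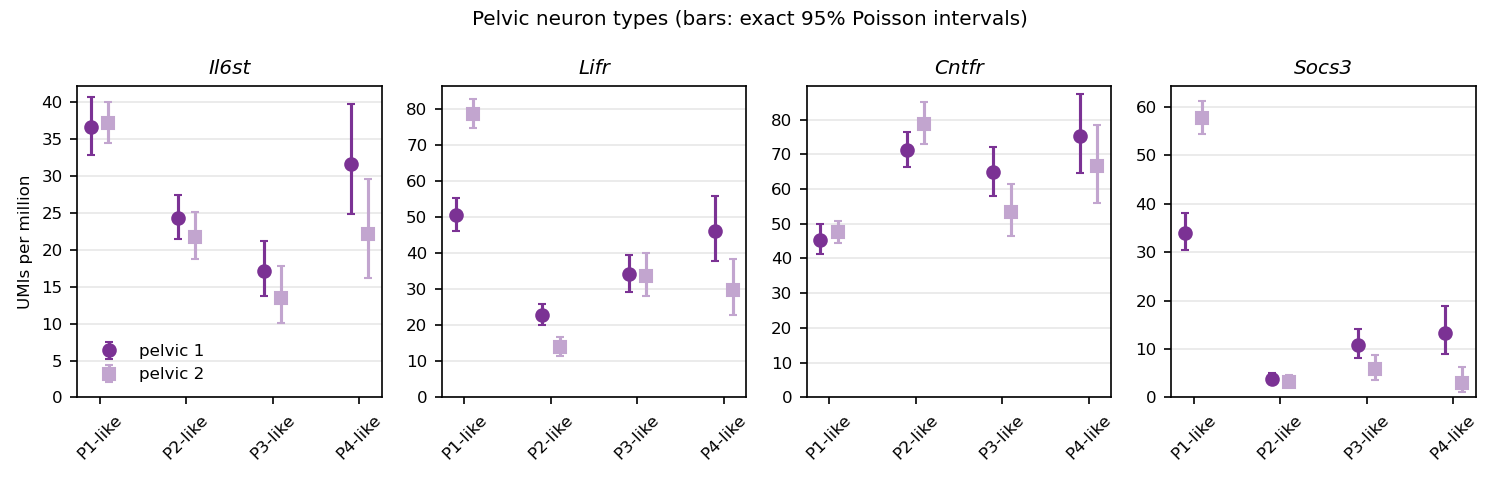
Level (CPM) of Il6st, Lifr, Cntfr and Socs3 in the P1-like to P4-like neurons of the 2 pelvic libraries, with exact 95% Poisson intervals for counting error. Socs3 and Lifr peak in P1-like and reach 3.21 and 14.0 in P2-like neurons of the second library, while Cntfr is lowest in P1-like neurons.

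Finer clusters showed how uneven Socs3, Lifr and Cntfr were within a ganglion, as a description with no test. Among the pelvic clusters, the highest Socs3 was in a cluster of 31 P1-like neurons led by Fst in the second library (111 CPM, Poisson interval 98.5 to 125), and an unnamed cluster of 104 neurons in the first library, with Fst and haemoglobin genes among its 10 leading genes, held 96.8 CPM. Socs3 was itself among the 10 leading genes of both clusters. Lifr was 110 and 111 CPM in these clusters, and Cntfr 80.1 and 54.8 CPM. The P1-like clusters with Gng8, Thy1 and Pcp4l1 in the lead held the highest Il6st of the named pelvic clusters of their library (62.9 and 50.9 CPM) and the lowest Cntfr (35.5 and 32.5 CPM).

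In the noradrenergic clusters of the stellate, Socs3 was between 0.907 and 7.54 CPM and Lifr between 20.3 and 84.0 CPM. The stellate and lumbar clusters with Gng8, Nwd2 and Fxyd2 among their leading genes had the lowest Cntfr of the noradrenergic clusters of their library (25.8 and 27.4 CPM). Their Lifr was 84.0 CPM, the highest of the stellate noradrenergic clusters, and 99.4 CPM, near the lumbar median of 94.9 CPM. Npy, Chodl and Fst were among the leading genes of 2 stellate clusters, with Lifr at 20.3 and 35.4 CPM and Cntfr at 70.8 and 59.8 CPM, and of 1 lumbar cluster, with Lifr at 57.5 and Cntfr at 65.1 CPM.

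A pair of sympathetic clusters carried cholinergic transporters beside Th and little Chat, and they were left unnamed. In the stellate (62 cells) Socs3 was 41.5, Lifr 112 and Stat3 129 CPM, with Slc5a7 at 228, Th at 550 and Chat at 2.30 CPM. In the lumbar chain (52 cells) Socs3 was 36.9, Lifr 96.6 and Stat3 106 CPM, with Slc5a7 at 103, Th at 551 and Chat at 0.985 CPM. Their Socs3 was above every noradrenergic cluster of the same library. The 5 glial genes stood at 1.56 and 0.238% of their glial level in them, and the part of glial RNA was not tested.

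Sphenopalatine cholinergic clusters spanned 5.72 to 99.4 CPM of Socs3 while their Lifr stayed between 8.15 and 23.6 CPM, so high Socs3 was seen there beside low Lifr. Over the 14 sums of neurons by library and named class, genes whose log2 levels were among the 3 that followed Socs3 most closely were Magel2 (Pearson r = 0.964) and Tnfrsf1a (0.917), among 15791 genes compared. Lifr was followed by Sox11 (0.878), Vim (0.872) and Plgrkt (0.872), and Cntfr, among others, by Igf2r (0.847) and Arhgef25 (0.840). The sums share libraries and neuron classes, and these values are descriptions.

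**Figure D4:**
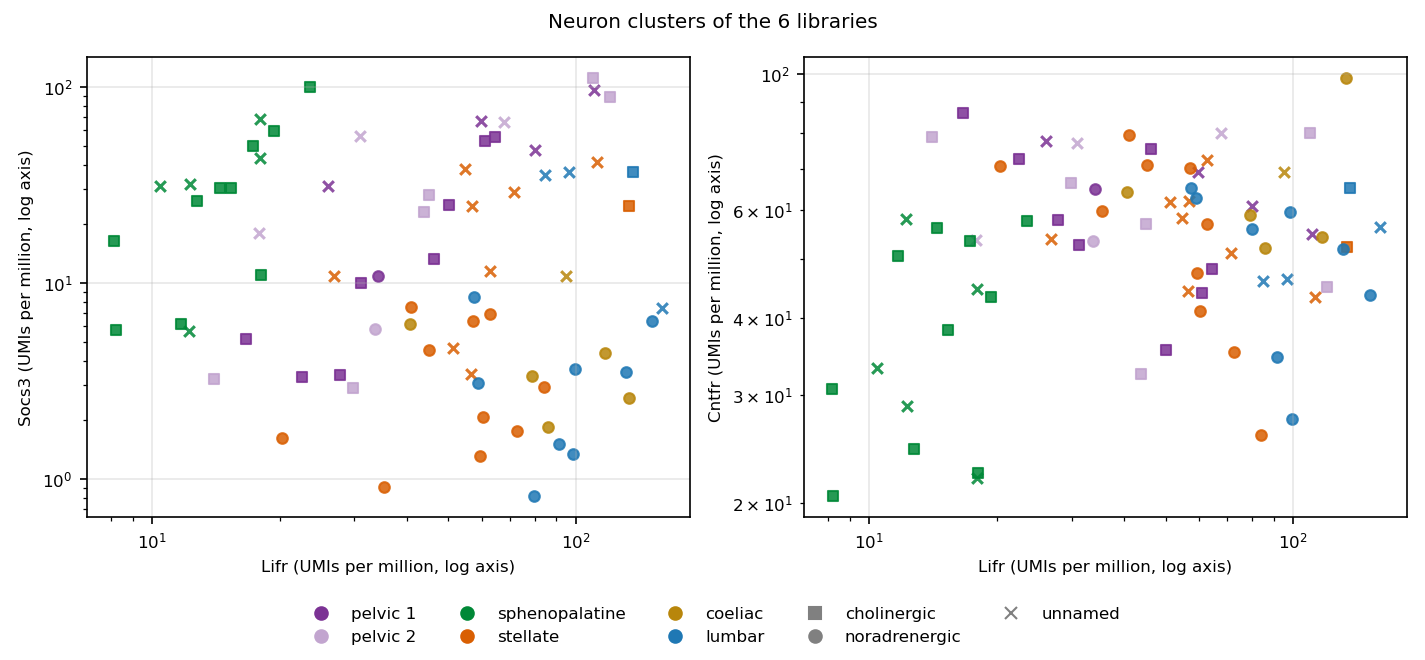
Neuron clusters of the 6 libraries by Lifr and Socs3 (left) and by Lifr and Cntfr (right), all in CPM on log axes, with colours for libraries and symbols for transmitter class. Sphenopalatine clusters sit at Lifr of 8.15 to 23.6 with Socs3 up to 99.4, and noradrenergic clusters of the stellate stay at or below 7.54 for Socs3.

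The ligands and Osmr were then sought in the other cells of the ganglia, clustered without the 9 genes and named fibroblast-like, endothelial-like, mural-like (pericytes and smooth muscle) and macrophage-like from 6 markers each. Of the 6 cell classes, fibroblast-like cells held the most Il6st and the most Lif. Il6st measured 206 ± 49.7 CPM in them (SD, n = 6), against 29.8 to 64.2 CPM in glia, a log2 difference of 2.36 ± 0.17 (edgeR, adjusted p = 2.00e-12). Lif was found in every library, with 15 to 27 UMIs each and 3.59 ± 0.81 CPM, whereas the endothelial-like, mural-like and macrophage-like cells held 2 Lif UMIs in all.

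Of 7 members tested in the fibroblast-like cells 6 were called, beside 59.0% of 12175 genes (28.0% higher and 31.0% lower). Il6st, Osmr (2.28 ± 0.28), Clcf1 (2.34 ± 0.43) and Lifr (0.49 ± 0.18, adjusted p = 0.0188) were higher than in glia and Cntfr (-1.56 ± 0.14) and Ctf1 (-0.67 ± 0.27, adjusted p = 0.0383) were lower. Socs3, at 520 ± 119 CPM, was not called (0.30 ± 0.15, edgeR, adjusted p = 0.0915). Il6, a further gp130 ligand, measured 11.9 to 30.1 CPM in these cells. The calls of Lifr and Ctf1 were lost without the first pelvic library (adjusted p = 0.0626 and 0.0856), and that of Ctf1 also without the sphenopalatine, stellate, coeliac or lumbar library.

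Endothelial-like cells held the most Osmr, at 25.1 ± 6.18 CPM, and had the highest mean Lifr of the 6 cell classes, at 89.2 ± 18.4 CPM. All 7 tested members were called against glia, beside 64.2% of genes (31.3% higher and 32.9% lower). Osmr (4.65 ± 0.27), Clcf1 (2.69 ± 0.46), Il6st (1.26 ± 0.17) and Lifr (1.26 ± 0.18) were higher, and Cntfr (-5.00 ± 0.21), Ctf1 (-3.10 ± 0.43) and Socs3 (-0.86 ± 0.16) were lower.

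Mural-like cells also held Osmr, at 20.6 ± 12.0 CPM, a log2 difference of 4.20 ± 0.35 from glia (edgeR, adjusted p = 1.12e-09). Cntfr (-3.65 ± 0.24) and Socs3 (-1.09 ± 0.17) were lower there, so 3 of 7 tested members were called, beside 43.7% of genes (20.0% higher and 23.7% lower). Il6st (-0.13 ± 0.23), Lifr (-0.09 ± 0.24), Ctf1 (-1.11 ± 0.47, adjusted p = 0.0603) and Clcf1 (1.72 ± 0.78, adjusted p = 0.0779) were not, though DESeq2 called Ctf1 (adjusted p = 0.0446) and Clcf1 (adjusted p = 0.0259).

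Macrophage-like cells had the lowest mean Il6st of the 6 classes (16.7 ± 6.19 CPM) and no Osmr UMI in any of the 6 libraries, which allows up to 2.08 to 7.31 CPM. The edgeR test over the 6 libraries called Osmr lower than in glia (-4.89 ± 1.78, adjusted p = 0.0208). These limits, each for a single library, lie above its glial range of 0.533 to 2.05 CPM, so no library shows the difference alone. With Osmr set aside after this call, 5 of 6 tested members were lower than in glia. Of all genes 63.8% were called, 27.9% higher and 35.9% lower, with no gene set aside. The 5 members were Cntfr (-4.52 ± 0.25), Ctf1 (-3.66 ± 0.66), Socs3 (-1.36 ± 0.17), Il6st (-1.15 ± 0.24) and Lifr (-0.63 ± 0.24, adjusted p = 0.0273). Clcf1 was not called (1.41 ± 0.78, adjusted p = 0.118), except by DESeq2 (adjusted p = 0.0289), and Cntf and Lif were too low to test in any class. Osm, which encodes the ligand of Osmr, was the counterpart, at 34.1 to 83.0 CPM in macrophage-like cells and at most 0.355 CPM in glia, and Il6ra, the interleukin-6 receptor chain, measured 52.3 to 109.7 CPM there. The call of Lifr was lost without the first pelvic (adjusted p = 0.098), the second pelvic (adjusted p = 0.0993) or the lumbar library (adjusted p = 0.0901).

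**Figure D5:**
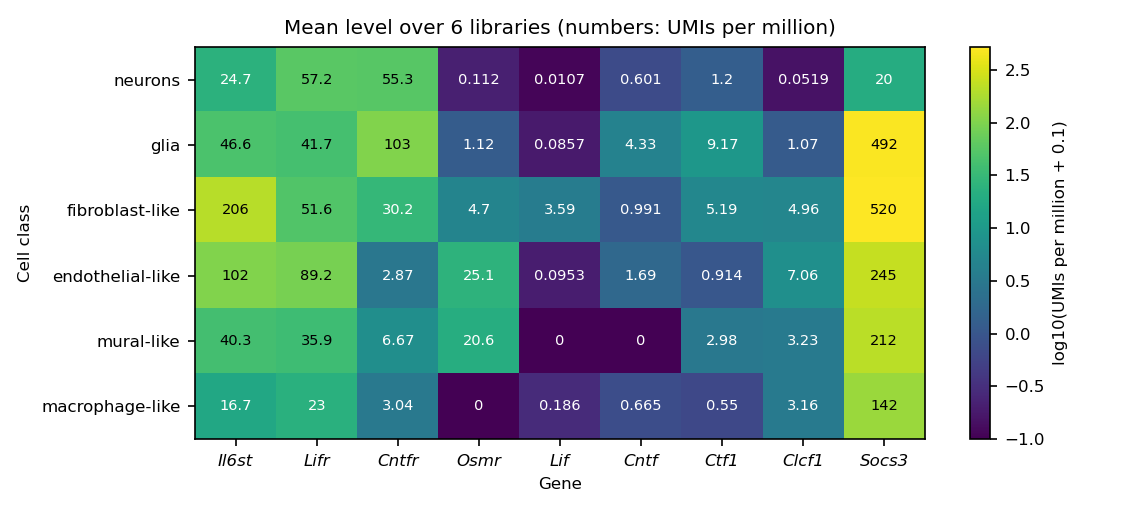
Mean level of the 9 genes over the 6 libraries in neurons, glia and the 4 other cell classes, as colour (log10 of CPM plus 0.1) with the mean printed in each cell. Osmr is brightest in endothelial-like and mural-like cells (25.1 and 20.6), Il6st in fibroblast-like cells (206) and Socs3 in glia and fibroblast-like cells.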

How the data were processed

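The values used were UMI counts deposited by the authors as 1 filtered matrix per library, made with Cell Ranger 6.0.1 on mm10 according to the submitters' processing notes. UMIs collapse PCR copies, so the intervals given cover counting error only. Barcodes with 1500 to 11000 genes and at most 15% mitochondrial counts were kept. Neurons had a mean sctransform 0.4.2 value of Stmn2, Stmn3, Gap43 and Tubb3 above 3 and of 5 glial genes (Ttyh1, Fabp7, Cryab and Mal among them) below 1.15, glia lay at or above the latter and not above the former, and 226 barcodes above both were left out. Cells were clustered within each library (scanpy 1.11.5, leidenalg 0.10.2, 2000 variable genes, 30 components, resolution 1) without the 9 genes and the other pathway lists, 62 genes in all.

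Clusters were named from marker lists, with level thresholds chosen after the marker levels were seen. Simulated doublets (over 50% among 30 neighbours, 6.85 to 21.4% of neurons) were kept and removed as an alternative. Counts were summed per library and class with at least 20 cells, and each comparison was fitted over all genes with edgeR 4.0.16 (R 4.3.3), the quasi-likelihood test with TMM factors, the default low-count filter, library as a block and Benjamini-Hochberg adjustment at 0.05. Standard errors are the fold change divided by the square root of F. DESeq2 1.42.0 was an alternative, and the tests were tried on simulated counts. The replicate block pairs sums of the same library, so the pairing comes from the design. Each library counts as 1 replicate. With library as a block, p-values rest on the spread of the class difference between libraries. The quasi-likelihood test also draws the variance of each gene toward that of other genes. The pelvic-only comparison and the pelvic types hold n = 2 libraries, so their p-values rest in part on other genes and little on replicates. Counts at the 3′ end do not scale with gene length.

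The 9 genes and all lists were chosen with earlier results of these data known. The text names the 9 genes, genes of the fixed lists that were called or needed as background, and the 3 genes closest to Lifr, Cntfr and Socs3 by Pearson correlation of log2(CPM + 1). Some genes that the rule names are not reported here. Clusters described singly were chosen after their values were seen.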

Additional observations from a re-analysis of the deposited data

Results flagged for a closer look

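The difference between cholinergic and noradrenergic neurons was itself different in the pelvic and the chain ganglia for 2 genes. For Socs3 the pelvic difference was lower by a log2 value of -1.48 (edgeR interaction term, adjusted p = 0.0148), and for Il6st it was higher by 1.10 (adjusted p = 0.0095). The pelvic libraries were unlike for Socs3, at 17.5 against 10.8 CPM in the first and 38.2 against 5.83 CPM in the second. The stellate and lumbar cholinergic neurons behind these values were 32 and 80 cells.

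Cntf stood out in myelinating Schwann-like cells, which were counted among the glia above and got no test of their own because only the first pelvic library held at least 20 of them. These cells measured 147 CPM (37 UMIs in 34 cells, exact Poisson interval 104 to 203) in the first pelvic, 75.0 CPM (10 UMIs in 7 cells, 36.0 to 138) in the second pelvic and 44.0 CPM (4 UMIs in 12 cells, 12.0 to 113) in the sphenopalatine library. The other glia of the 6 libraries measured 2.40 to 4.83 CPM, below every one of these intervals. Cntf UMIs were found in 8 of the 34 cells of the first pelvic library. Zfp91, the gene that encloses Cntf on the same strand, was not raised there, at 79.6 CPM against 85.2 CPM in the other glia.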

How the results depend on the processing

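Counts of called genes stayed within 1.5 times under every alternative for neurons against glia and for endothelial-like, mural-like and macrophage-like cells. The cholinergic against noradrenergic comparison was less stable: its 884 calls became 1818 with DESeq2, 1399 with every gene kept, 275 with no replicate block, 277 to 628 with a library left out, 110 in round 1, 487 with the per-cell rule, 346 without simulated doublets and 2831 in the pelvic libraries alone. In round 2 alone edgeR called 0 genes, with 1370 at an unadjusted p under 0.05. Without the replicate block the pelvic types fell from 4885 to 1429 calls and fibroblast-like cells from 7185 to 4593. The causes were not tested.

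Directions reversed for genes that were not called. The log2 difference of Cntfr between transmitter classes ran from -0.017 (without the lumbar library) to 0.14 (without the stellate library) with a library left out, and was -0.12 in round 1 and -0.020 at a resolution of 2. Lifr in mural-like cells ran from -0.33 (without the second pelvic library) to 0.15 (without the stellate library) and was 0.21 in round 2, and Clcf1 in macrophage-like cells was -0.055 in round 1. With summed library sizes the split of higher and lower calls moved from 3391 and 4375 to 2373 and 6272 in macrophage-like cells and from 3412 and 3773 to 2559 and 5255 in fibroblast-like cells. Of the values for single genes, 471 stayed the same, 33 lost their call and 17 gained it. The 471 include values of a pelvic library taken alone, which had no test and were judged by size only. UMIs were found in at least 10% of neurons for 25 of 54 gene and library pairs, 18 after thinning and 21 with at least 2 UMIs. The pelvic types could not be fitted within a round, which holds 1 pelvic library.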
